A study of Mus musculus with 74 samples.

Results

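The C3Tag comparison set lung metastases (Lung met) against mammary primary tumors (PT) of FVB mice that carry the C3(1)-Tag transgene, and covered 19320 genes. They are all genes of the C3Tag table with a mean in both tissues, out of 19321 listed there, and out of 72149 gene entries in the 4 tables used here. By the labels, 7 PTs and 7 Lung mets of genotype C3TAg entered, and the 7 animal names of both tissues were the same. The labels give no age or treatment. Her2 (MMTV-Her2, FVB), BALB PyMT-F1 and SEAGN PyMT-F1 tumors (MMTV-PyMT males bred to BALB/cJ or Sea/GnJ females), each with 6 PTs and 6 Lung mets, served only to show where C3Tag differed.

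In C3Tag mice the SV40 large T antigen is driven by a rat prostate steroid-binding protein promoter. Large T antigen binds and disables p53 and the Rb family, and the tumors are used as a model of basal-like, triple-negative breast cancer. The promoter is also active in epithelia other than the mammary gland, which limits the model. Transgenic males were bred to FVB/NJ females, female carriers were followed, and the PTs of mice that bore 1 lesion were removed by surgery before the animals aged further. By the methods Her2 mice were handled the same way, while PyMT mice aged until they reached or neared humane endpoints. In C3Tag mice with 1 lesion the PT was thus taken before the Lung met, so tissue cannot be told apart from time of collection there. Between C3Tag and the PyMT-F1 groups, the model cannot be told apart from the strain background or the time and stage of collection. A metastasis dissected from lung carries alveolar epithelium, capillaries and blood cells, while a mammary tumor carries fibroblasts, fat and nearby muscle. In such bulk samples, fewer cells of a type and less RNA per cell cannot be told apart.

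What was analysed is 1 normalized mean per gene and tissue, made by the authors. There was no value of a single mouse, so no SD, n or test stands behind a difference, the depth is unknown, and "higher" and "lower" describe these means only. The log2 ratio is the log2 of the Lung met mean over the PT mean, and a gene was called measured when the higher of its means was at least 100. Of the 13801 measured genes, 994 (7.20%) were at least 2-fold higher and 184 (1.33%) at least 2-fold lower in Lung met, so 84.4% of the 2-fold genes were higher. The median log2 ratio of measured genes was 0.018, with 5% of genes below -0.54 and 5% above 1.29. Of the measured genes, 7231 had a log2 ratio above 0 and 6570 below 0.

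The PT means summed to 40891824 and the Lung met means to 23447977, and a single small nuclear RNA gene held 38.3% of the PT sum. Scaling both tissues to the same total would add 0.80 to every log2 ratio, the median gene included. Without small nuclear RNA and histone genes the same scaling would change each ratio by -0.092. The list medians that turn positive under the first scaling are given with the processing limits.

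**Figure D1:**
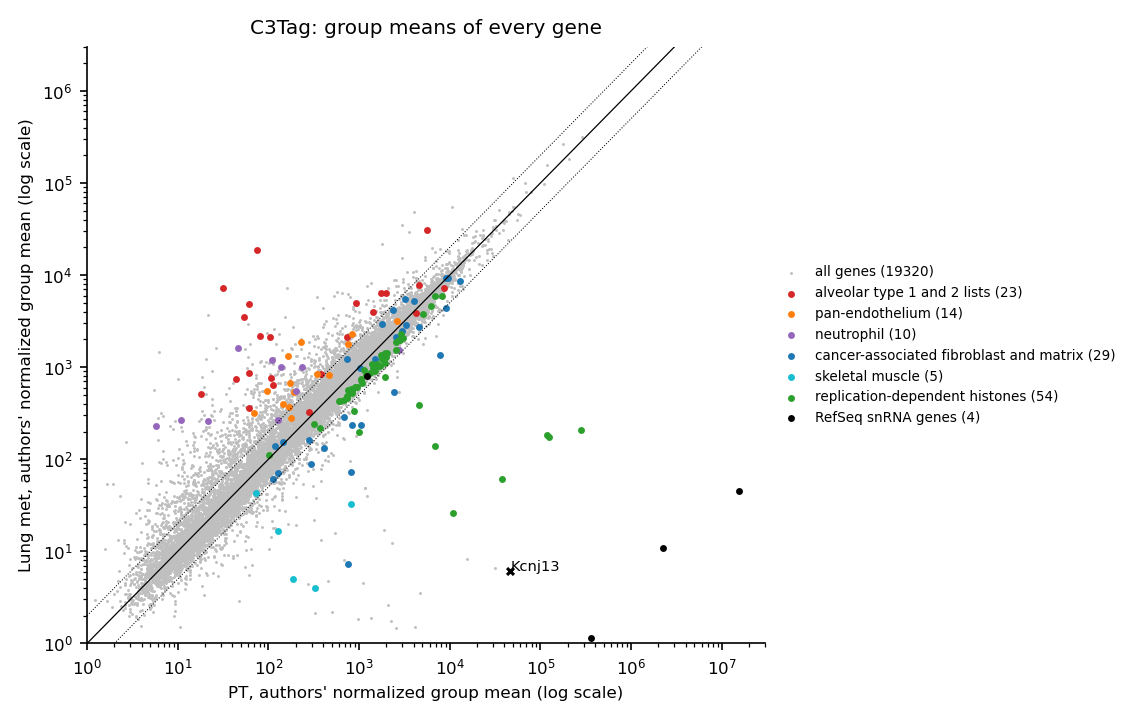
Authors' normalized group mean of each C3Tag gene in PT (x axis, log scale) and Lung met (y axis, log scale), 1 dot per gene, with equal means on the solid line and 2-fold differences on the dotted lines. Alveolar and neutrophil genes lie above the line, skeletal muscle genes below it, and 3 small nuclear RNA genes and Kcnj13 stand far to the lower right.

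Genes of the alveolar surface were higher in Lung met. Of the 8 alveolar type 2 genes analysed out of 14 listed, 7 were at least 2-fold higher, with a median log2 ratio of 4.24. The 7 include Lyz2, lysozyme. The listed genes without a value include surfactant protein genes. Slc34a2, the phosphate transporter of surfactant-producing cells, had a PT mean of 75.5 and a Lung met mean of 18739, 248-fold higher and the highest ratio of any measured gene. Lamp3, a membrane protein of lamellar bodies, had 31.7 in PT and 7279.6 in Lung met, a log2 ratio of 7.84. Sftpd, the collectin surfactant protein D, had 61.5 and 4801, and Napsa, the protease that processes surfactant protein B, had 54.0 and 3478. The PT means of these 4 genes were all under the level minimum of 100. Abca3, the lamellar body lipid transporter, was already at 1756 in PT and stood at 6458 in Lung met, and Etv5 did not pass 2-fold, at 4244 and 3848.

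The alveolar type 1 list, which marks the thin gas-exchange cells, had 12 of 15 members at least 2-fold higher and none 2-fold lower, with a median log2 ratio of 2.52. Ager, the receptor that marks these cells, had a PT mean of 80.4 and a Lung met mean of 2166. Clic5 and Hopx were 20.2-fold and 16.8-fold higher. Col4a3 and Col4a4, the collagen IV chains of the alveolar basement membrane, were higher by 4.83 and 2.52 on the log2 scale. Aqp5, a water channel, rested on a high PT level, at 1995 against 6439. Vegfa was the exception, at 8605 in PT and 7306 in Lung met.

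Channels that clear fluid from the alveolus were higher too, in 5 of 7 measured members of the epithelial sodium and water channel list. Scnn1a, Scnn1b and Scnn1g, the subunits of the epithelial sodium channel, had log2 ratios of 2.04, 3.57 and 5.54, against 2.33, 0.27 and 1.17 in Her2. The airway list held 2 measured genes out of 10, the club cell enzyme Cyp2f2 (151 in PT and 659 in Lung met) and Foxj1 (197 and 378). Foxf1, a lung mesenchyme transcription factor, had 19.5 and 302, and was with Hoxa5 1 of 2 measured of 7 listed, both 2-fold higher. Of the mesothelium list, Msln was 7.03-fold higher and Krt19 had a log2 ratio of 0.40, with 2 of 6 measured.

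Endothelial genes were higher as a group. The pan-endothelium list had 11 of 14 members at least 2-fold higher, all 14 above 0, and a median log2 ratio of 1.44. Vwf, the platelet-binding factor, had a PT mean of 226 and a Lung met mean of 1867. Calcrl, a receptor of adrenomedullin, had 164 and 1308. The junction genes Cldn5 and Cdh5 had log2 ratios of 2.49 and 1.45, while the receptor Flt1 stood at 0.27. A list of genes for clotting control and leukocyte binding at endothelium had 9 of 12 measured members 2-fold higher, with a median of 1.77. This list shares Vwf with the pan-endothelium list and also names Itgb2, a leukocyte integrin gene. Procr, the endothelial protein C receptor, had 58.1 in PT and 969 in Lung met, a log2 ratio of 4.06 against 0.65 in Her2, 0.28 in BALB and 0.061 in SEAGN. Thbd, its thrombin-binding partner, and the adhesion receptor Icam1 were higher by 2.74 and 2.43 on the log2 scale. The lung capillary list was less uniform, with 2 of 7 members 2-fold higher, Tbx2 at 2.89 and Gpihbp1 at 1.63, and a median of 0.58 against 0.73 in Her2.

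Collagen IV and laminin chains, which build the sheet under epithelium and vessels, were 2-fold higher in 6 of 12 cases. The widely expressed chains Col4a1 and Col4a2 had PT means of 5346 and 3925 and Lung met means of 15657 and 10692. Their log2 ratios were 1.55 and 1.45, set beside 0.27 and 0.22 in Her2 and -0.071 and -0.10 in SEAGN. Smooth muscle and pericyte genes had a median of 0.02 over 10 measured genes, and only the kinase Mylk passed 2-fold, at 701 and 2797.

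Neutrophil genes were 2-fold higher in 9 of 10 measured cases, with a median log2 ratio of 3.15. S100a9, a subunit of calprotectin, had a PT mean of 110.2 and a Lung met mean of 1194. The chemokine receptor Cxcr2 had 46.2 and 1615, and Ngp, a granule protein, 5.69 and 227. Cd177, a surface glycoprotein of neutrophils that was not in the list, had 6.16 and 1476, a log2 ratio of 7.90 against -0.25 in Her2. Ltf went the other way, at 2741 in PT and 1532 in Lung met, with 2.39 in Her2. Lactoferrin, its product, is made by mammary epithelium as well as by neutrophils.

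Macrophage genes showed no such difference as a group. The complement genes C1qa, C1qb and C1qc had log2 ratios of 0.046, 0.0049 and 0.21, the receptor Csf1r 0.26, and the list median was 0.33 over 10 genes. The scavenger receptor Msr1 and the engulfment receptor Mertk passed 2-fold, at 1.25 and 1.15. Ear2, a ribonuclease gene of the alveolar macrophage list, had 20.3 and 1227, while Krt79 of the same list had 922 and 408, and these were the 2 measured of 9. Antigen presentation genes lay above 0 in 7 of 8 measured cases, led by the invariant chain Cd74 with 3910.3 in PT and 9558 in Lung met.

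Antibody transcripts made up 3 of the 8 largest differences of means in the higher direction. Igkc, the kappa light chain constant gene, had 4038 in PT and 48303 in Lung met. Ighg1 had 2999 and 35159.6, and Igha 1793 and 21626. Their ratios lay between 11.7-fold and 12.1-fold, and Jchain, which links IgA, had a log2 ratio of 3.28. Igkc was higher in the other models too, with log2 ratios of 3.03 in Her2, 2.40 in BALB and 3.39 in SEAGN. B cell genes proper were low, with Cd79a at 44.1 and 113 and 2 of 10 measured, 1 of them 2-fold higher. The T cell list had 2 measured genes of 12, Lck at -0.71 and Cd4 at -0.18, a median of -0.44 that was 0.36 under total scaling. No cytotoxic lymphocyte gene reached 100. Erythroid genes were 2-fold higher in 5 of 5 cases, with Hbb-bs at 349.5 and 1647. The globin copies are near identical, so their reads may be split uncertainly.

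**Figure D2:**
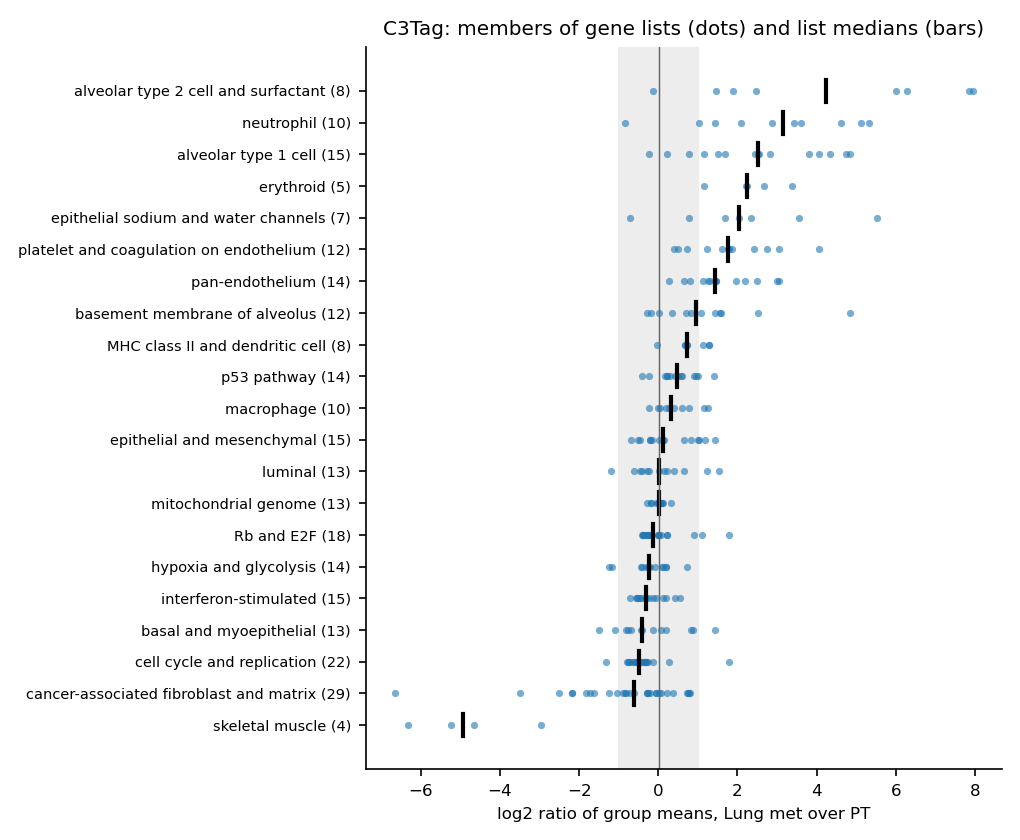
Log2 ratio of C3Tag group means, Lung met over PT (x axis), for each measured member of 21 gene lists (dots) with the list median (black bar) and the number measured in brackets. The shaded band is under 2-fold, and the alveolar type 2 list lies highest and the skeletal muscle list lowest.

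Skeletal muscle genes were lower in Lung met. All 4 measured of 12 skeletal muscle genes were at least 2-fold lower. Acta1, skeletal actin, had a PT mean of 824 and a Lung met mean of 32.6, Atp2a1, the muscle calcium pump, 325 and 4.02, and Ckm, muscle creatine kinase, 188 and 5.01. In Her2 the log2 ratio of Acta1 was -4.99 and in C3Tag -4.66. Of cardiac genes, Tnnt2 alone was measured, at 968 and 645, a log2 ratio of -0.59 that total scaling would turn to 0.22.

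Genes of cancer-associated fibroblasts and their matrix split in C3Tag. Of 29 measured, 10 were at least 2-fold lower and none 2-fold higher, and the median log2 ratio was -0.62, or 0.18 under total scaling. Lrrc15, a surface protein of myofibroblasts in tumors, had 746 in PT and 7.34 in Lung met. Col12a1, a fibril-associated collagen, had 7804 and 1372, and the matrix protein genes Thbs2 and Fbn2 were both 4.52-fold lower. Postn, periostin, had 9049.6 and 4385. Sfrp2, a secreted Wnt antagonist that fibroblasts make, had 379 and 13.3.

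Of the main fibrillar collagens, Col1a1 lay at the list median with a log2 ratio of -0.62, while Col1a2 and Col3a1 lay nearer to 0, at -0.062 and 0.011. Col1a1 stood at 13112 in PT and 8522 in Lung met, Col1a2 at 9620.0 and 9217, and Col3a1 at 9173 and 9245. The log2 ratio of Col3a1 was 0.011 in C3Tag, -1.26 in Her2, -1.76 in BALB and -2.31 in SEAGN. Decorin (Dcn) and Col6a3 were above 0 in C3Tag, at 0.75 and 0.77, and below 0 in each of the others, with Her2 at -1.68 and -0.95. The medians of the list were -0.62 in C3Tag against -1.32 in Her2, -1.74 in BALB and -2.19 in SEAGN. These tables were normalized separately and hold no replicates, so the difference between models was not tested.

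Tumor cell markers differed less, and in opposite directions within the basal list. Krt14, a keratin of basal epithelium, had a PT mean of 5105 and a Lung met mean of 1798, a log2 ratio of -1.51 against 1.09 in Her2, 1.12 in BALB and 0.80 in SEAGN. Krt17 had 2271 and 1064, with 1.15 in Her2, and the basal transcription factor Trp63 273 and 156, with 1.16 in Her2. Sox10, a neural crest and basal-like tumor factor, was close to level at 6816 and 6220.0. Vim, vimentin, was higher, at 5359 and 14538, a ratio of 1.44 against -0.71 in Her2. The basal list as a whole had a median of -0.41 over 13 genes, or 0.40 under total scaling, with 1 member 2-fold higher and 2 lower.

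Of 13 measured luminal genes 1 was 2-fold lower in Lung met and 2 were 2-fold higher. The lower gene was Esr1, the estrogen receptor, with 264 in PT and 115 in Lung met. The higher genes were Foxa1, a transcription factor of luminal cells, with 248 and 577, and Areg, a ligand of the epidermal growth factor receptor, with 494 and 1443. Pgr, the progesterone receptor, did not reach the level minimum at 54.8 and 6.73. Krt8 and Krt18, the keratins of simple epithelium, had log2 ratios of 0.64 and 0.23, and the luminal median was 0.019 over 13 genes. Csn3, the 1 milk protein gene analysed, had 10797 and 8803, a log2 ratio of -0.29 that total scaling would turn to 0.51. Epcam, an epithelial surface protein, stood at 20929 and 13066, and Cdh1, E-cadherin, at 12386 and 13347. On the mesenchymal side Zeb1, Snai1 and Fn1 were 2-fold higher, at 1.03, 1.01 and 1.17. With Vim that makes 4 of the 15 measured genes of the epithelial and mesenchymal list. The median of that list was only 0.11, with 9 genes above 0 and 6 below. Fn1, fibronectin, had the largest difference of means among the 2-fold higher genes, 50248 in PT against 113230.5 in Lung met. Endothelium, fibroblasts and leukocytes express Vim, Zeb1 and Fn1 too, and the part of the endothelial difference in these values was not tested.

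Cell cycle genes lay below 0 almost throughout. Of 22 measured, 20 had a log2 ratio below 0, beside 6570 of all 13801 measured genes. Among the 22, 1 was 2-fold lower (1.33% of all measured genes) and 1 2-fold higher (7.20% of all). The median was -0.48, or 0.32 under total scaling and -0.57 under total scaling without small nuclear RNA and histone genes. Unscaled list medians elsewhere were -0.29 in Her2, 0.11 in BALB and 0.23 in SEAGN. Foxm1, a transcription factor of mitotic genes, had a PT mean of 7355 and a Lung met mean of 2926. Mki67, the proliferation antigen Ki-67, had 28933 and 17359, Top2a, a topoisomerase, 16561 and 10086, and Mcm5 of the replicative helicase 4393 and 2871. Ccnd1, cyclin D1, was the exception, at 2543 and 8743, a ratio of 1.78 against -0.52 in Her2. Ccnd2 was also 2-fold higher and Cdk6 stood at 0.90, and the rest of the Rb and E2F list lay between -0.41 and 0.22, with a median of -0.12 (0.68 under total scaling). Cyclin D with Cdk4 or Cdk6 phosphorylates Rb, the protein that large T antigen binds.

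Most genes of this cell cycle list carry CCAAT letters just before their start, and 3 promoters are shown because together they hold every element searched. CCAAT is the site of NF-Y, TTTGAA the cell cycle homology region (CHR) read by MuvB complexes, and TTTGGCGC or TTTCGCGC an E2F site. RefSeq promoters of 250 bases (GRCm38.p6) matched 17 of the 22 genes, and 16 of their 18 promoters held CCAAT on either strand, against 33.8% of all 32851 promoters. CHR letters were in 5 of the 18 (16.0% of all) and E2F letters in 3 (0.654% of all). A match is a description of letters and not a bound site. The sequences run 5′ to 3′ on the gene's strand and end at the base before the start, with matches on either strand in capitals, and in Mcm5 the E2F letters of both strands overlap by 4 bases.
Mki67, chr7:135716380-135716629, minus strand: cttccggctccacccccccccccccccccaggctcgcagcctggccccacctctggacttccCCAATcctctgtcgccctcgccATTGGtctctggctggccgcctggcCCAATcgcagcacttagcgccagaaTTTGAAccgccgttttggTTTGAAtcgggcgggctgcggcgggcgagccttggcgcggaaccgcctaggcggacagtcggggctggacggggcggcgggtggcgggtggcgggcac
Cdk1, chr10:69352913-69353162, minus strand: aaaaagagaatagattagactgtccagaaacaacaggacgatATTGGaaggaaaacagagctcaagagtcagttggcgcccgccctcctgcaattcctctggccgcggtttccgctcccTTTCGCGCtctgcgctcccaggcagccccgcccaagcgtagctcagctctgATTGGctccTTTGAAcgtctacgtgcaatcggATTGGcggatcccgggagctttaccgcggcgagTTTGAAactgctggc
Mcm5, chr8:75109259-75109508, plus strand: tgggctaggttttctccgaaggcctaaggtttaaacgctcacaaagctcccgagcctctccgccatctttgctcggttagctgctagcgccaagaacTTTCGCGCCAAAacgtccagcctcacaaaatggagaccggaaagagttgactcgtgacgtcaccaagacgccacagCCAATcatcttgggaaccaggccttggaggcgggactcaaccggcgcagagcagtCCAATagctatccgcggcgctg
The log2 ratios of these 3 genes were -0.74, -0.54 and -0.61 in C3Tag, and -0.18, -0.44 and -0.19 in Her2.

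Among p53 pathway genes 12 of 14 lay above 0, beside 7231 of all 13801 measured genes, with a median of 0.47. The list median was -0.10 in Her2, 0.48 in BALB and 0.68 in SEAGN. The cytokine gene Gdf15 had 107 and 281, Cdkn1a, which encodes the inhibitor p21, 1860.2 and 2834, and Trp53 itself 2557 and 2157. Interferon-stimulated genes had a median of -0.30 over 15 genes, or 0.50 under total scaling, and none passed 2-fold. In the hypoxia list Car9, a carbonic anhydrase, and Adm, adrenomedullin, were 2-fold lower, at 344 and 145 and at 404 and 181, while the median was -0.22 (0.58 under total scaling). Mitochondrially encoded genes were level, with log2 ratios from -0.28 to 0.32.

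**Figure D3:**
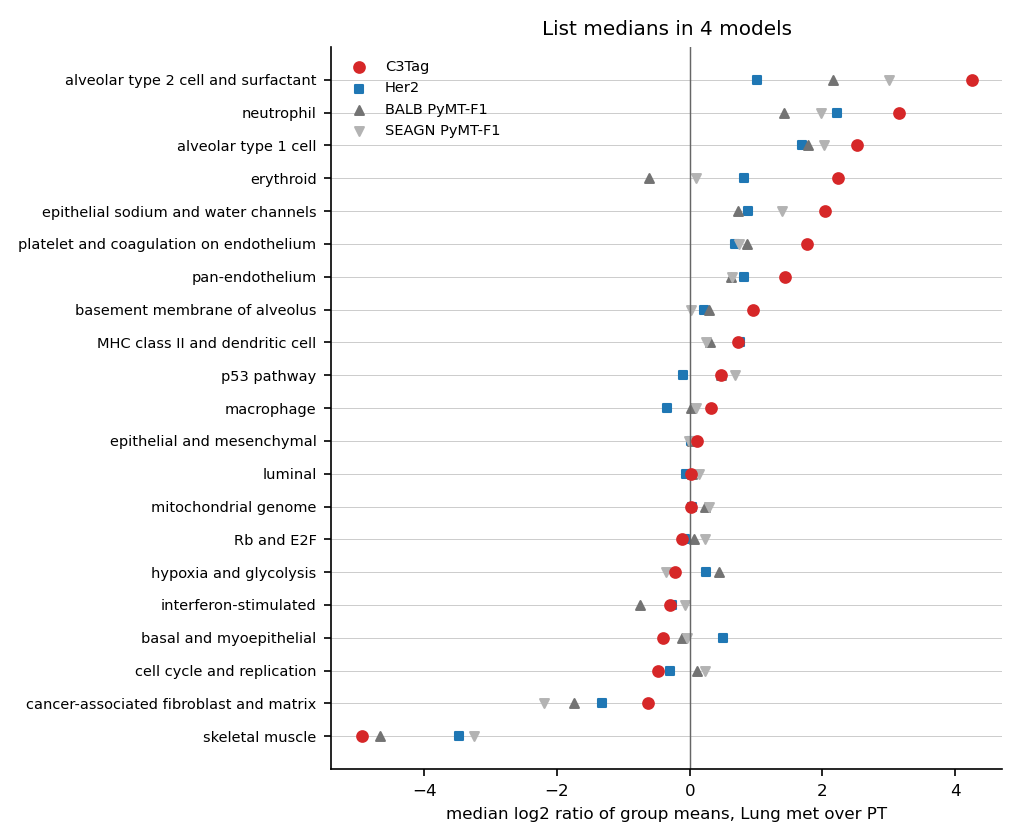
Median log2 ratio of group means, Lung met over PT (x axis), of 21 gene lists in C3Tag (red circles), Her2 (blue squares), BALB PyMT-F1 and SEAGN PyMT-F1 (gray triangles). C3Tag lies highest in the pan-endothelium, neutrophil and alveolar type 1 and type 2 lists. It is the model nearest to 0 in the fibroblast list, with no test of the differences. Members were held to the level minimum in C3Tag only, which favours genes high in C3Tag. In some lists fewer members were joined in the other models.

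The middle 90% of measured genes lay between -0.54 and 1.29 in C3Tag, -0.35 and 0.42 in Her2, -0.42 and 0.52 in BALB, and -0.52 and 0.55 in SEAGN. The C3Tag range was thus wider on the higher side, while its lower end was close to that of SEAGN. Her2 had 198 genes at least 2-fold higher (1.54%) and 125 lower (0.971%) among 12877 measured, BALB 153 (1.55%) and 124 (1.26%) among 9846, and SEAGN 180 (1.85%) and 172 (1.77%) among 9744. Of the 666 genes 2-fold higher in C3Tag and measured in Her2, 104 were 2-fold higher in Her2 too, 15.6% of the C3Tag genes and 63.8% of the Her2 genes. The shared genes were 57.0% of the BALB genes and 70.7% of the SEAGN genes, against 16.3% and 24.7% of the C3Tag genes. Most genes higher in another model were thus higher in C3Tag, and most C3Tag genes were not 2-fold higher elsewhere. Genes lower in C3Tag were lower in Her2 in 27 of 80 cases, which was 27.8% of the Her2 genes.

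Of 8387 genes measured in all 4 models, 410 were past 2-fold in C3Tag. Among these, 184 (44.9%) were within 1.5-fold in each of the other 3 models, 168 of them higher and 16 lower in C3Tag Lung met. Of all 8387 genes, 7475 (89.1%) were within 1.5-fold in those 3 models, so a share of 44.9% lies below the background and marks no gene as particular to C3Tag. Another 42 were past 2-fold in the same direction in all 4 models. The genes named next were past 2-fold in C3Tag and within 1.5-fold elsewhere, but with no level minimum in the other models. They thus need not be among the 184. By ratio, Fut2, a fucosyltransferase of secretory epithelium, led the higher genes with 37.0 in PT and 591 in Lung met. Its log2 ratios elsewhere were -0.19, -0.43 and -0.0067. Ctse, the protease cathepsin E, had 118 and 816, S100a4, a calcium-binding protein of motile cells, 430.5 and 3165, and Irf4, a lymphoid transcription factor, 67.1 and 474. The others of the 10 highest were Fam174b, Sytl2, Mtcl1, Gsta4, Dysf and Arsj, between 2.57 and 3.48. Wnk1, a kinase that regulates salt transport, showed the pattern at a high level, with 10722 in PT and 54337 in Lung met against 0.23 in Her2.

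The 10 lowest of this kind were Kcnj13, Ggt1, Rims2, Tmtc1, Pyroxd1, Golt1b, Lockd, Recql, Esrrg and Sox11. Ggt1, gamma-glutamyltransferase, had a PT mean of 317 and a Lung met mean of 21.9, against a log2 ratio of 0.26 in Her2. Golt1b, a Golgi transport protein, had 7092 and 2175, and Recql, a DNA helicase, 2603 and 898. Sox11, a transcription factor of embryonic and basal-like tissue, had 605 and 233. Of the 10, Tmtc1, Pyroxd1, Golt1b and Recql lie at the far end of chromosome 6. Lockd lies on the same chromosome farther from the end, in the window chr6:131299142-136489127.

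**Figure D4:**
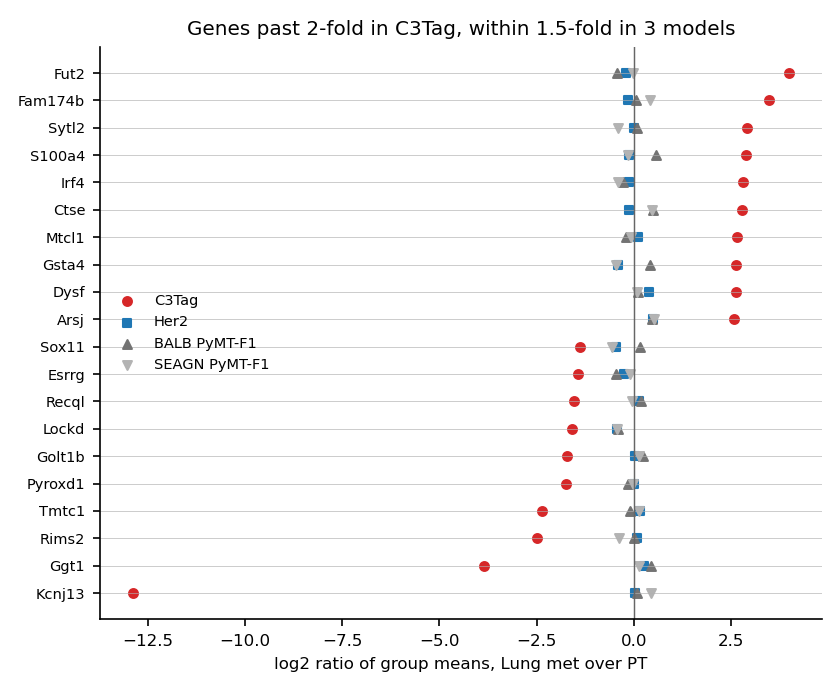
Log2 ratio of group means, Lung met over PT (x axis), of the 10 highest and 10 lowest genes past 2-fold in C3Tag (red circles) and within 1.5-fold in Her2 (blue squares), BALB and SEAGN PyMT-F1 (gray triangles). The genes were chosen for this pattern without a level minimum in the other models, and Kcnj13 lies apart at -12.89.

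Placed along the chromosomes by GENCODE M21 (GRCm38), a view chosen after the values were seen, neighbouring genes lay low or high together in a few segments of C3Tag, as they also did in BALB. The 13749 placed genes were divided into 544 windows of 25 consecutive genes, the last window of a chromosome taking the remainder. Window medians ran from -0.78 to 0.72 with 90% between -0.16 and 0.22, and 4 windows lay beyond 0.5 in either direction. For the joined genes of these windows, medians ran from -0.16 to 0.22 in Her2, with no window beyond 0.5. They ran from -0.28 to 0.68 in BALB with 5 such windows, all on chromosome 11, and from -0.55 to 0.33 in SEAGN with 1. The lowest in C3Tag were the last 2 windows of chromosome 6, chr6:143201397-149583656, with 43 of 50 genes below 0, 10 of them 2-fold lower, and a median of -0.72. Those of the 50 genes that were joined had medians of 0.065 in Her2 (40 genes), 0.036 in BALB (30) and 0.067 in SEAGN (28). Ints13, an Integrator subunit, had 13926 in PT and 6973 in Lung met, Bicd1, a dynein adaptor, 4501 and 2002, and Arntl2, a clock gene, was the exception at 2547 and 7605. Just before them lie Pyroxd1, Recql, Golt1b and Cmas, whose log2 ratios were -1.74, -1.54, -1.71 and -1.37. Foxm1 lies in another low window of chromosome 6, chr6:127887589-131293244, with a median of -0.48, 16 of 25 genes below 0, and 6 2-fold lower beside 5 2-fold higher. The genes of this paragraph other than those named by the ratio rule were chosen after their values were seen.

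The highest C3Tag window was chr2:168476410-174346744, with 22 of 25 genes above 0, 6 of them 2-fold higher, and a median of 0.72 against -0.068 in Her2. Bmp7, a growth factor, had 126 in PT and 838 in Lung met, Rae1, an mRNA export factor, 809 and 2059, and Gnas, the stimulatory G protein subunit, 6966 and 14050.3. Aurka lies in the same window and was the 1 cell cycle gene beside Ccnd1 with a ratio above 0, at 0.26. Of the genes named here, Aurka alone came from a list, and the others were chosen after their values were seen. Under total scaling every window would lie 0.80 higher, and the distance of these windows from the median gene would be the same.

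**Figure D5:**
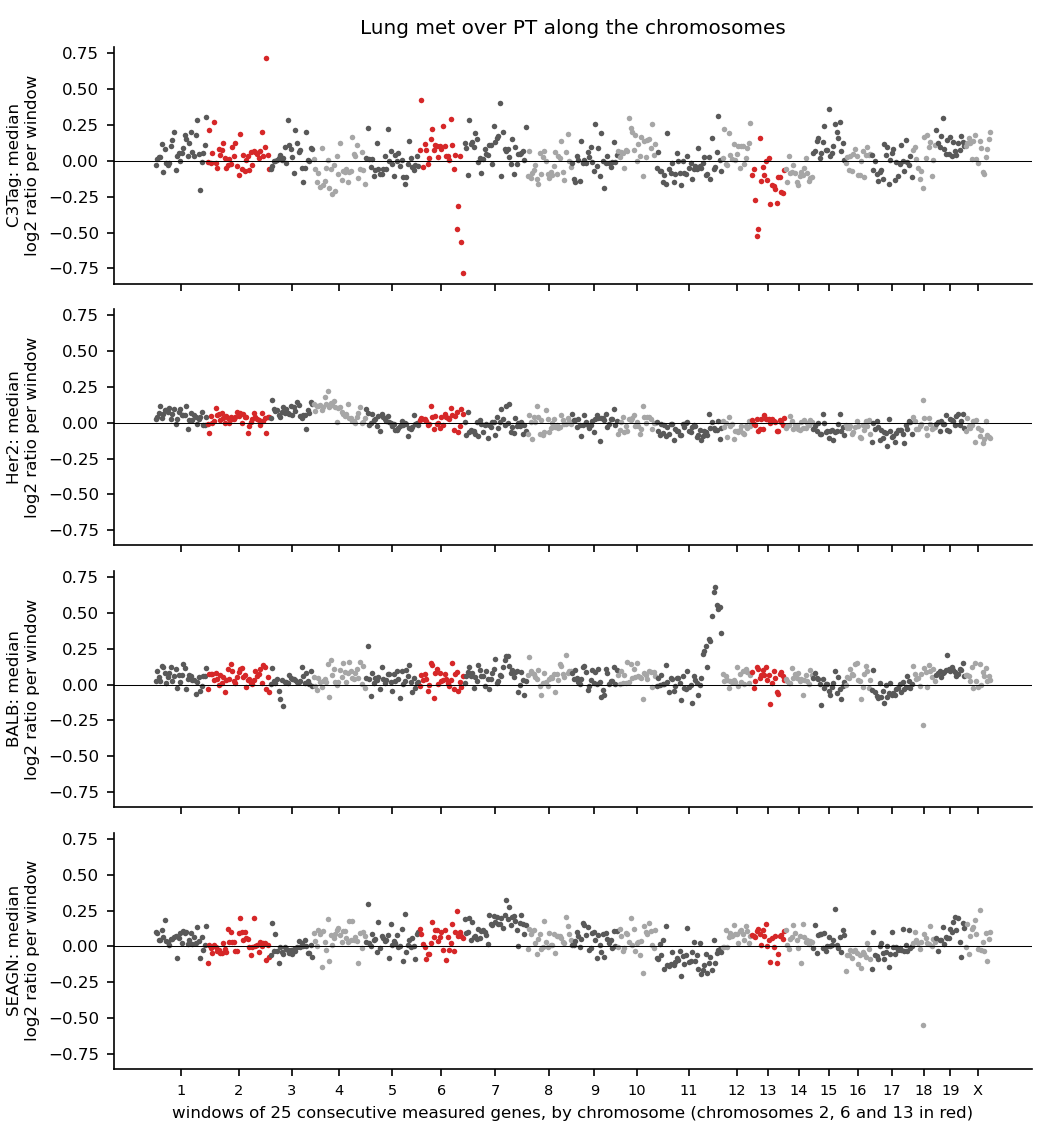
Median log2 ratio, Lung met over PT (y axis), of 544 windows of 25 consecutive measured genes in chromosome order (x axis). C3Tag is at the top, with Her2, BALB PyMT-F1 and SEAGN PyMT-F1 below it for the joined genes of each window. Chromosomes 2, 6 and 13 are in red. The end of chromosome 6 reaches -0.78 and a window of chromosome 2 0.72 in C3Tag, Her2 stays between -0.16 and 0.22, and windows of chromosome 11 reach 0.68 in BALB.

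Replication-dependent histone genes formed a further low group, added after their values were seen. Their transcripts end in a stem-loop and most carry no poly(A) tail. Of 54 measured, 53 had a log2 ratio below 0, 10 were 2-fold lower, and the median was -0.56, which total scaling would turn to 0.24. On chromosome 13, chr13:21810465-25020379 held 36 of them, all below 0 with a median of -0.55, and 14 other genes with a median of -0.15. H3c13 had a PT mean of 280959 and a Lung met mean of 208, H2ac7 122999.7 and 175, and H2ac4 117675 and 184. Most others were closer, such as H1f2 at 8258 and 5941 and H4c4 at 2799 and 1989. The copies are near identical, so the authors' counting may split their reads uncertainly. Of the 27 joined to Her2, the median there was 0.047.

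Some rows had extreme ratios whose precision is unknown. In all, 27 genes were at least 64-fold lower in Lung met, of which 14 had symbols of predicted or clone-derived genes, 3 small nuclear RNA genes by RefSeq among them, and 5 were histone genes. Gm22614, one of these RNAs, had a PT mean of 15645841 and a Lung met mean of 45.4, and small nuclear RNAs took 44.7% of the PT sum. Kcnj13, a potassium channel gene, had 46386 and 6.09, set beside 24.4 and 24.9 in Her2. Vmn2r29, Pagr1b, Ugt1a1, Ugt1a5 and Mm2pr were at or under 8.03 in Lung met, and Ugt1a1 and Ugt1a5 overlap each other. With 1 mean per tissue, a mean carried by a single PT cannot be told apart from one shared by all 7. On the higher side 8 genes passed 64-fold, all with established symbols. Besides alveolar genes and Cd177 they were Dlk1, an imprinted transmembrane protein (21.6 and 3687), Tmem163, a zinc transporter (5.45 and 566), and Kng2, a kininogen (10.0 and 749). The rest of the 15 highest included Cd36, a fatty acid receptor, at 162 and 7164, with log2 ratios of 0.22 in Her2 and 3.43 in BALB. Clu, the chaperone clusterin, and Lyz2, lysozyme, had large differences of means, at 3586 and 29410.5 and at 5556 and 31010.5.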

How the data were processed

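RNA was extracted from PTs and Lung mets and sequenced. Per the labels the libraries were stranded total RNA with ribosomal RNA removal, while the methods name mRNA libraries. The methods name mm9 and mm10 and the submitters' processing notes mm39 with STAR 2.7.8a and DESeq2, so the build is unsettled. The authors counted reads per gene in Partek Flow, normalized the counts by a method not given in the sources used here, and deposited a signal per gene and tissue, the least-squares group mean, without SD or n. The same tables also hold p-values, FDR values, ratios and fold changes of the authors' own comparison, and these were not used. The depth of each sample is unknown. No value of a single sample was analysed, so no interval and no test was computed.

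From the deposited means log2(Lung met mean / PT mean) was computed per gene with Python 3.11.15, numpy 2.4.6 and pandas 2.3.3. Figures were drawn with matplotlib 3.10.9. A gene was measured where the higher mean was at least 100, and called where the means differed at least 2-fold. Her2 genes were joined by Ensembl identifier and BALB and SEAGN genes by a symbol that occurs once in both tables. List and window medians of the other models covered the joined genes that were measured in C3Tag, with no level minimum in those models. The other 2 tables of the series were not used here. Groups were taken from the sample titles, since other labels of PyMT-F1 samples conflicted with the titles in strain and tissue. The BALB and SEAGN values are the authors' group means, so the titles cannot settle which samples entered each mean. The C3Tag labels did not conflict. GENCODE M21 placed 19260 of 19320 genes.

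The genes named are the 15 highest and 15 lowest ratios, the 8 largest differences of means in each direction, and the 10 highest and 10 lowest ratios of genes within 1.5-fold in the other 3 models. These were taken among genes with an established symbol, and in C3Tag a higher mean of at least 100 and a lower mean above 1. No level minimum was set in the other models. Members of 40 gene lists were named besides. The members and lists were chosen with earlier results of these data known. The steps were tested on simulated data. Alternatives were other level minimums, folds and scalings and a pseudocount.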

Additional observations from a re-analysis of the deposited data

How the results depend on the processing

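No paired analysis was possible because the tables hold group means only, and for the same reason no replicate was left out in turn. The 2-fold counts of 994 higher and 184 lower genes were 509 and 85 with a level minimum of 500, and the lower count was 311 with a minimum of 10 and 328 with none. A fold of 1.5 gave 1882 higher and 571 lower genes, and a fold of 4 gave 312 and 70. Scaling both tissues to the same total gave 4132 higher and 80 lower genes, a share of 98.1% higher and a median log2 ratio of 0.82, since it moved every ratio alike. With a limit of 2-fold in place of 1.5-fold in the other models, chosen after seeing the data, 277 genes in place of 184 passed. Under total scaling the medians of 11 lists turned positive. They were 0.22 for cardiac muscle, 0.66 for adipocyte, 0.073 for squamous epithelium, 0.36 for T cell, 0.18 for fibroblast and matrix, 0.40 for basal, 0.51 for milk protein, 0.68 for Rb and E2F, 0.32 for cell cycle, 0.50 for interferon-stimulated and 0.58 for hypoxia genes. Total scaling without small nuclear RNA and histone genes was also chosen after seeing the data. It left the medians of those 11 lists below 0. It turned 3 medians near 0, to -0.072 for smooth muscle, -0.073 for luminal and -0.080 for mitochondrial genes. Centering turned the mitochondrial median to -0.0055, and a minimum of 10 turned the Wnt target median to -0.021. Of 173 named genes past 2-fold, 18 were under 2-fold with total scaling, 6 with total scaling without small nuclear RNA and histone genes, 4 with a pseudocount of 10 and 2 with centering. None of them changed direction under these 4 settings.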

Other observations

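Channel, vitamin A and vessel tone genes were also spread unevenly in C3Tag. Among 5 measured voltage-gated calcium channel genes of 9 listed, the T-type channel Cacna1h had a PT mean of 20.4 and a Lung met mean of 507, while the T-type channel Cacna1g had 119 and 18.0. Of 12 retinoid genes 4 were 2-fold higher, with Aldh1a1, a retinaldehyde dehydrogenase, at 23.8 and 902 and the retinol receptor Stra6 at 272 and 1293. The retinoic acid receptor Rara was not past 2-fold, at 1159 and 1292. Of 8 natriuretic peptide and cyclic GMP genes 3 were 2-fold higher, with the clearance receptor Npr3 at 55.4 and 506. Of 11 chemokine genes 3 were 2-fold higher, with Ccl6 at 516 and 3438, Ccl9 at 319.7 and 1100.3, and Cxcl12 at 456 and 914.

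Of 7 measured Wnt target genes Nkd1 alone was 2-fold higher, at 58.8 and 362, while Axin2 had 109.7 and 209. Among 4 measured secreted Wnt antagonists Dkk2 had 53.1 and 124, and Sfrp1 1236 and 1486. In the adipocyte list Pparg had 47.9 and 179, Plin4 276 and 156, and in the squamous list Krt10 had 313 and 79.0. The medians of these lists were -0.15 and -0.73, and total scaling would turn them to 0.66 and 0.0726.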
